A study of Saccharomyces cerevisiae with 12 samples.

Results

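A pair of over-expression experiments with the yeast copper transporter Ctr1 were set against each other gene by gene, over all 12 arrays of the series. The contrast was the effect of the truncated construct in the deletion strain, Dctr1_CTR1D300 minus Dctr1_Con, minus the effect of the full-length gene in wild type, WT_CTR1 minus WT_Con. It is called the difference below, and the construct effects in it are called the CTR1 effect and the CTR1D300 effect. A positive difference means that a transcript was higher with CTR1D300, relative to its own control, than with CTR1. All 4 groups and all 3 arrays per group enter it, and all 6127 genes that passed the filter on dim probes were tested.

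Ctr1 is the high-affinity copper transporter of the yeast plasma membrane, and it delivers copper to chaperones in the cytosol. Copper is a cofactor of cytochrome oxidase, of superoxide dismutase and of the Fet3 oxidase of iron uptake, and free copper damages iron-sulfur clusters. Budding yeast answers amino acid shortage with Gcn4, which activates synthesis genes of most amino acids, and sets ribosome production and stress genes by nutrient supply in opposite directions.

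All cultures were haploid Saccharomyces cerevisiae on the BY4741 background, a laboratory strain that lacks HIS3, LEU2, MET17 and URA3. WT_Con was BY4741 with an empty vector, and WT_CTR1 was BY4741 over-expressing CTR1. Dctr1_Con was BY4741 delta-ctr1 with an empty vector, and Dctr1_CTR1D300 was the same deletion strain over-expressing CTR1 delta-300. Every group grew for 7 h at 30 °C in leucine-free synthetic medium with 0.02 mM CuCl2, from a starting OD600 of 0.6, so no culture here lacked added copper. Each group has 3 arrays, which the submitters describe as independent experiments. The promoter of the constructs and what the truncation removes are not given in the sources used here. Strain and construct changed together, so which of them a difference goes with cannot be told apart.

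HIS3, MET17 and URA3 were not well above background on any of the 12 arrays, and the genes MFA1, MFA2, STE2, BAR1 and STE6, which mark a-type cells, were well above it on all 12. The CTR1 probe read -2.51, -2.53 and -2.47 in WT_Con and 4.76, 4.56 and 4.53 in WT_CTR1, in log2 units relative to the array's 75th percentile, the level scale used throughout. On none of the 6 deletion-strain arrays was it well above background, so it checked the deletion and gave no reading of CTR1 delta-300. YPR123C, which overlaps CTR1, was well above background on 3 of 3 Dctr1_CTR1D300 arrays (-4.74, -5.31 and -4.50) and on 1 of 3 Dctr1_Con arrays. The median processed signal per array was 1792 to 2999, and 96.5% to 98.9% of the probes of an array were well above background. Controls lay in one column of each slide and over-expressing arrays in the other, so a column effect that is equal in both strains enters each construct effect and cancels in the difference. The median gap between the 2 spots of a probe was 0.175 for the CTR1 effect, 0.161 for the CTR1D300 effect and 0.057 for the difference (log2), and gaps over 1 were found for 153, 136 and 20 genes.

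The difference was called for 2845 of 6127 genes (46.4%) at an adjusted p under 0.05 in limma, 1209 of them higher (19.7%) and 1636 lower (26.7%). At least 2-fold differences were called for 752 genes (12.3%) and at least 4-fold ones for 180 genes (2.94%). The median size of the difference over all genes was 0.36 on the log2 scale against a median SE of 0.14. In 2321 of the called genes (37.9% of those tested) all 9 pairings of over-expressing minus control arrays in one strain lay above all 9 pairings in the other. Called genes thus made up nearly every other gene tested, and the classes and list counts below are read against these shares.

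**Figure D1:**
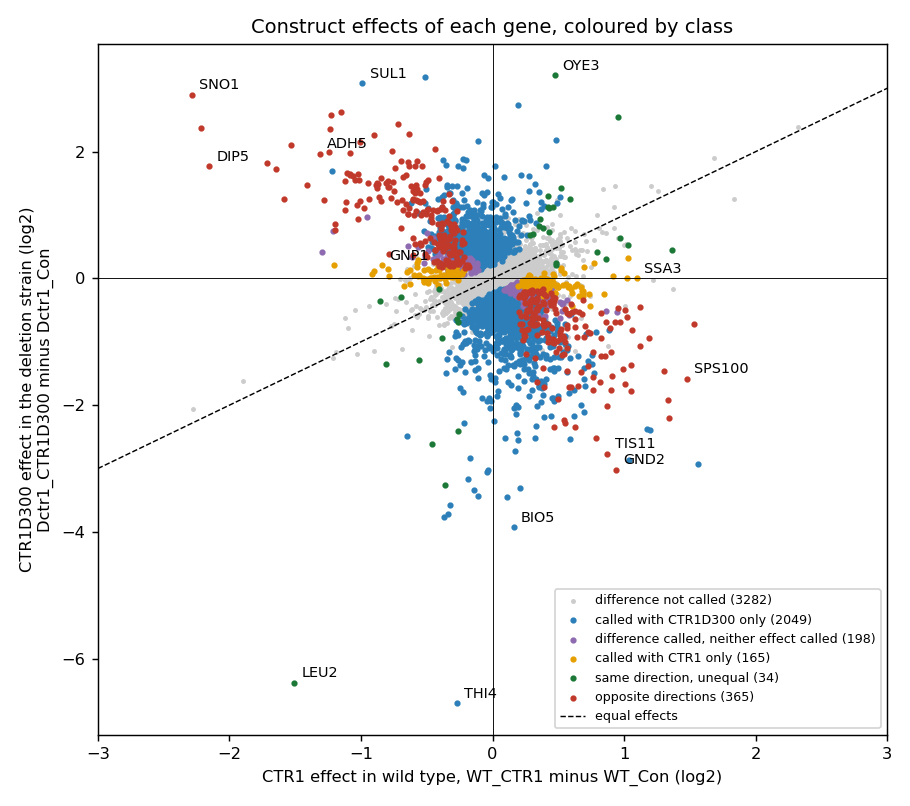
Each point is a tested gene, with the CTR1 effect (WT_CTR1 minus WT_Con) on the horizontal axis and the CTR1D300 effect (Dctr1_CTR1D300 minus Dctr1_Con) on the vertical axis, both in log2 units and on axes of different length. Colours mark the classes, the dashed line marks equal effects, and the 34 called genes that were dim in a group, CTR1 among them, are left out. The 198 genes lower with CTR1 and higher with CTR1D300 lie in the upper left and the 167 reverse genes in the lower right.

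Called genes were sorted by the construct effects themselves. A slide column effect does not cancel in these, so it could shift genes between the classes below, which was not tested. In 365 genes (5.96%) both effects were called and had opposite signs: 198 fell with CTR1 and rose with CTR1D300 (3.23%), and 167 did the reverse (2.73%). In 2049 genes (33.4%) the CTR1D300 effect was called and the CTR1 effect was not, with 833 higher (13.6%) and 1216 lower (19.8%). The converse, a called CTR1 effect without a called CTR1D300 effect, held for 2.69% of the genes, 99 higher (1.62%) and 66 lower (1.08%). Both effects had one sign but different sizes in 34 genes (0.555%), 21 higher (0.343%) and 13 lower (0.212%), neither was called alone in 198 genes (3.23%), and 34 genes (0.555%) were not well above background on 2 of 3 arrays in some group.

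An effect that is not called is not an effect of 0. In 1523 of the 2049 genes (24.9% of those tested) the 95% interval of the CTR1 effect lay within 0.5 of 0 on the log2 scale, and in 147 genes of the converse class (2.4%) that of the CTR1D300 effect did. With same-numbered arrays of a strain paired as blocks, the genes called for both effects in opposite directions rose to 1232, and all 365 stayed in that class. Under that fit 596 of the 2049 genes and 43 genes of the converse class joined the opposite class, 1392 and 117 kept their own class, and the count for CTR1 without CTR1D300 rose to 323. The opposite class held 206 to 583 genes when 1 array at a time was left out, with 238 genes without WT_Con replicate 3, 229 without WT_CTR1 replicate 1, 206 without WT_CTR1 replicate 3 and 583 without WT_CTR1 replicate 2. WT_CTR1 replicate 2 lay nearer to its controls than the other 2 arrays of its group for many of the genes below.

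The genes that moved oppositely were mostly moved further by the truncated construct. Of the 365 genes, 284 had the larger effect with CTR1D300 and 81 with CTR1. Among the 198 genes lower with CTR1 and higher with CTR1D300 the median effects were -0.49 and 1.01, and 28 genes changed at least 2-fold both ways. Among the 167 reverse genes the medians were 0.46 and -0.72, and 8 genes changed at least 2-fold both ways. In all 365 genes each effect had one sign in all 3 same-numbered pairs of arrays and the ranges of the strains were apart, as the calls largely require. With each spot of the probe alone 210 of the 365 genes were in the same class. The sign of the difference was the same on slide 1 as on slides 2 and 3 for all 365. Calls made on those same arrays largely require this too.

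SNO1 and SNZ1, neighbouring genes of vitamin B6 synthesis whose products form one enzyme complex, showed the largest opposite movement. SNO1 levels were -1.56, -1.30 and -1.36 in WT_Con and -4.45, -2.44 and -4.18 in WT_CTR1, against -1.87, -1.60 and -1.82 in Dctr1_Con and 1.35, 1.098 and 0.96 in Dctr1_CTR1D300. The controls of the strains lay close together, every WT_CTR1 array lay below them and every Dctr1_CTR1D300 array above them, with WT_CTR1 replicate 2 the least far down. The difference was 5.18 ± 0.56 (SE, n = 3 arrays per group; adjusted p = 3.93e-05 in limma), and it was 6.11 on slide 1 and 4.72 on slides 2 and 3. SNZ1 levels were 2.31, 2.70 and 2.55 in WT_Con, -0.33, 1.36 and -0.13 in WT_CTR1, 2.18, 2.41 and 2.16 in Dctr1_Con and 4.85, 4.55 and 4.44 in Dctr1_CTR1D300, a difference of 4.58 ± 0.49 (adjusted p = 3.46e-05). The groups of SNZ1 were ordered as those of SNO1 and did not overlap between control and over-expressing arrays.

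DIP5, the permease of glutamate and aspartate, read -2.25, -1.78 and -1.86 in WT_Con and -4.52, -3.44 and -4.39 in WT_CTR1. In the deletion strain it read -1.58, -1.64 and -1.62 with the vector and 0.02, 0.17 and 0.28 with CTR1D300. Its fall with CTR1 (-2.15 ± 0.23) and its rise with CTR1D300 (1.77 ± 0.23) were of similar size, and the difference was 3.93 ± 0.33 (adjusted p = 6.36e-06). Of the other 3 genes that the naming rule took from this direction, SRL4 reached a difference of 3.77 ± 0.33, YGL117W (ARO5 in the RefSeq names) 3.64 ± 0.30 and YGL024W 3.81 ± 0.25. All 3 had CTR1 effects between -1.53 and -1.15 and CTR1D300 effects between 2.11 and 2.62.

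In the reverse direction GND2, the minor isozyme of 6-phosphogluconate dehydrogenase in the pentose phosphate pathway, showed the largest difference. Its levels were 2.11, 1.88 and 2.04 in WT_Con, 3.18, 2.56 and 3.12 in WT_CTR1, 1.97, 1.60 and 1.46 in Dctr1_Con and -0.997, -1.54 and -1.48 in Dctr1_CTR1D300. The rise with CTR1 (0.94 ± 0.19) was much smaller than the fall with CTR1D300 (-3.02 ± 0.19), and the difference was -3.96 ± 0.28 (adjusted p = 1.62e-06). TIS11 (CTH2), an RNA-binding protein that degrades transcripts of iron-using proteins when iron is short, read 0.30, -0.18 and 0.16 in WT_Con, 1.13, 0.57 and 1.19 in WT_CTR1, 0.23, 0.03 and 0.13 in Dctr1_Con and -2.81, -2.61 and -2.50 in Dctr1_CTR1D300. Its difference was -3.64 ± 0.24 (adjusted p = 9.77e-07).

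GRE1, a hydrophilin gene induced by osmotic and other stress, rose with CTR1 from 0.54, 0.63 and 0.37 to 2.16, 1.61 and 1.78. It fell with CTR1D300 from 0.42, 0.08 and -0.22 to -1.64, -2.07 and -1.77, and the difference was -3.25 ± 0.25 (adjusted p = 3.79e-06). SPS100, a spore wall gene, rose from -3.40, -2.72 and -3.31 to -1.55, -1.93 and -1.52 with CTR1 and fell from -3.02, -3.06 and -3.39 to -4.67, -4.84 and -4.70 with CTR1D300. For both genes no over-expressing array overlapped a control array of its strain. The other 2 named genes of this direction were SHH3, a mitochondrial protein related to a succinate dehydrogenase subunit (difference -3.54 ± 0.35), and MF(ALPHA)1, the alpha-factor precursor gene, at -3.31 ± 0.20. The MF(ALPHA)1 probe read between -8.10 and -4.44 on the arrays of these a-type strains and was well above background on all 12.

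**Figure D2:**
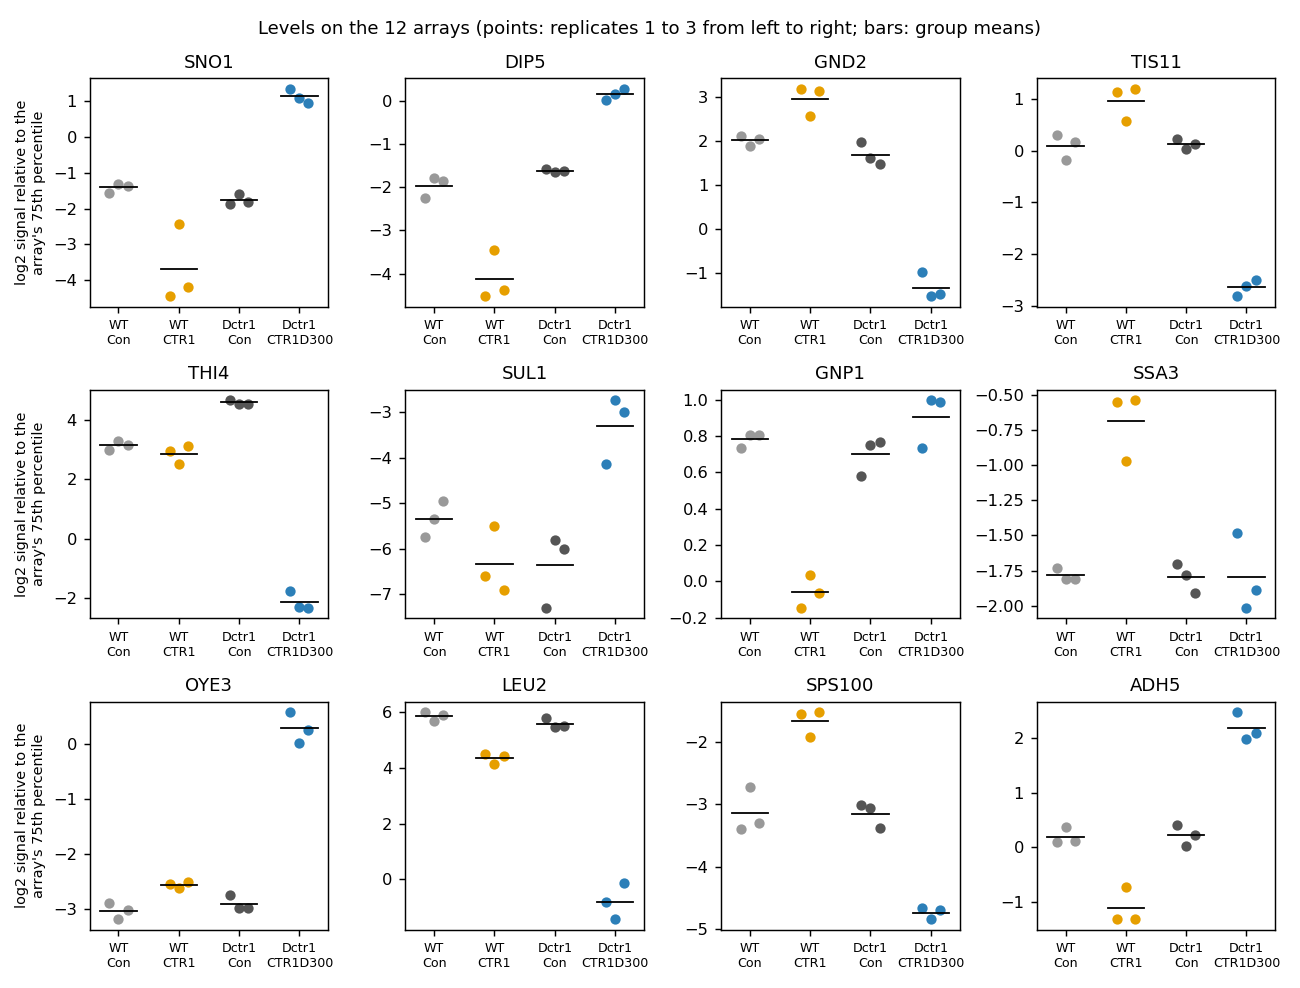
Levels of selected genes on each of the 12 arrays (log2 signal relative to the array's 75th percentile), with 1 point per array and a bar at each group mean of 3 arrays. SNO1 falls with CTR1 and rises with CTR1D300, GND2 does the reverse, and THI4 reads between 2.49 and 4.64 in 3 groups and between -2.33 and -1.76 in Dctr1_CTR1D300.

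Amino acid synthesis held the largest block of opposite movement among the gene lists. Of 98 measured genes in the 7 lists of branched-chain, arginine, lysine, histidine, aromatic, threonine to proline and sulfur amino acid synthesis, 50 (51%) fell with CTR1 and rose with CTR1D300, against 3.23% of all genes tested. None of the 98 moved the other way round, 24 (24.5%) were called with CTR1D300 and not with CTR1, and 2 (2.04%) the converse. These lists were drawn up with earlier results of these arrays known, so their shares describe the arrays and are no independent evidence of direction.

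All 12 genes of the branched-chain list were called higher in the difference, against 19.7% of all genes, and 11 of 12 were in the opposite class. LEU2, which the BY4741 chromosome lacks, is neither in this list nor among the 98 genes and is described separately. Their median effects were -0.87 with CTR1 and 1.19 with CTR1D300, and the median difference was 2.21 against -0.07 over all genes, at 2.51 on slide 1 and 2.06 on slides 2 and 3. LEU1, isopropylmalate isomerase of leucine synthesis, read 2.51, 2.75 and 2.68 in WT_Con, 0.55, 1.74 and 0.88 in WT_CTR1, 2.54, 2.48 and 2.35 in Dctr1_Con and 3.95, 3.63 and 3.52 in Dctr1_CTR1D300. The arrays of the 4 groups fell into 3 levels, low with CTR1, middle in both controls and high with CTR1D300. OAC1, the mitochondrial carrier that exports the leucine precursor isopropylmalate, had a difference of 2.76 ± 0.18, and ILV3, dihydroxyacid dehydratase, an iron-sulfur enzyme, 2.52 ± 0.24 (adjusted p = 1e-06 and 1.78e-05).

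LEU2, the next enzyme of leucine synthesis, moved the other way in the difference. It read 6.005, 5.69 and 5.89 in WT_Con, 4.49, 4.14 and 4.42 in WT_CTR1, 5.80, 5.46 and 5.50 in Dctr1_Con and -0.80, -1.43 and -0.14 in Dctr1_CTR1D300. It was lower with both constructs, by far more with CTR1D300 (-6.38 ± 0.26) than with CTR1 (-1.51 ± 0.26), and the difference was -4.87 ± 0.36 (adjusted p = 2.48e-06). The BY4741 chromosome carries no LEU2 and the medium lacked leucine, so the signal is that of whatever LEU2 copy the cultures carried, and the marker genes of the vectors are not given in the sources used here.

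Arginine synthesis had 8 of 10 genes higher in the difference and 6 in the opposite class, with medians of -0.49 and 1.46 for the CTR1 and CTR1D300 effects. ARG7, the mitochondrial ornithine acetyltransferase, had a difference of 2.65 ± 0.13 and ORT1, the mitochondrial ornithine exporter, 2.42 ± 0.10. The exporter rose more with CTR1D300 (1.85 ± 0.07) than it fell with CTR1 (-0.58 ± 0.07).

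All 6 histidine genes were higher in the difference and 5 of 6 were in the opposite class. HIS4, a multifunctional enzyme of the pathway, read 2.72, 2.75 and 2.83 in WT_Con, 1.86, 2.09 and 1.96 in WT_CTR1, 2.71, 2.56 and 2.66 in Dctr1_Con and 4.33, 3.92 and 4.01 in Dctr1_CTR1D300, with no overlap between control and over-expressing arrays. Of 14 aromatic amino acid genes 12 were higher and 10 were opposite, among them ARO3 (2.31 ± 0.13) and ARO4 (2.19 ± 0.12), which catalyse the first step of the shikimate pathway, and TRP4 of tryptophan synthesis (1.98 ± 0.10). Of 17 genes of threonine, serine, glycine and proline synthesis, a list that also holds aspartate-derived steps, 13 were higher and 10 were opposite. They included HOM3, aspartate kinase, which had a difference of 2.15 ± 0.08 (adjusted p = 5.82e-08), and ASN1, asparagine synthetase, at 2.06 ± 0.12.

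Sulfur amino acid genes were higher in the difference in 22 of 30 cases and lower in 1, but 14 of the 30 rose with CTR1D300 without a called CTR1 effect and 8 were opposite. MET13, methylenetetrahydrofolate reductase, was opposite: it went from -1.57, -1.64 and -1.61 to -2.14, -2.31 and -2.48 with CTR1 and from -1.80, -1.80 and -1.88 to 0.01, -0.07 and 0.11 with CTR1D300. STR3, a cystathionine beta-lyase, had a difference of 2.47 ± 0.18. SUL1, the sulfate permease, had the largest positive difference among genes called with CTR1D300 and not with CTR1, and rose from -7.30, -5.81 and -6.00 in Dctr1_Con to -4.14, -2.73 and -2.99 in Dctr1_CTR1D300. In wild type it read -5.75, -5.34 and -4.95 with the vector and -6.60, -5.50 and -6.90 with CTR1, where the groups overlapped. Its difference was 4.07 ± 0.69 (adjusted p = 0.00086), and its CTR1 effect of -0.99 ± 0.49 (adjusted p = 0.224) was called with the arrays paired within strain (adjusted p = 0.0338).

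Lysine synthesis stood outside this pattern, with 1 of 9 genes higher and 1 lower in the difference and none in the opposite class. The median effects were -0.39 with CTR1 and -0.17 with CTR1D300. LYS9, saccharopine dehydrogenase, read 4.19, 4.07 and 4.21 in WT_Con, 4.48, 4.32 and 4.23 in WT_CTR1 and 4.31, 4.43 and 4.48 in Dctr1_Con, but 2.04, 1.85 and 2.04 in Dctr1_CTR1D300, a difference of -2.62 ± 0.12 (adjusted p = 1.42e-07). LYS5, which activates the aminoadipate reductase of the pathway, was higher by 1.36 ± 0.19.

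**Figure D3:**
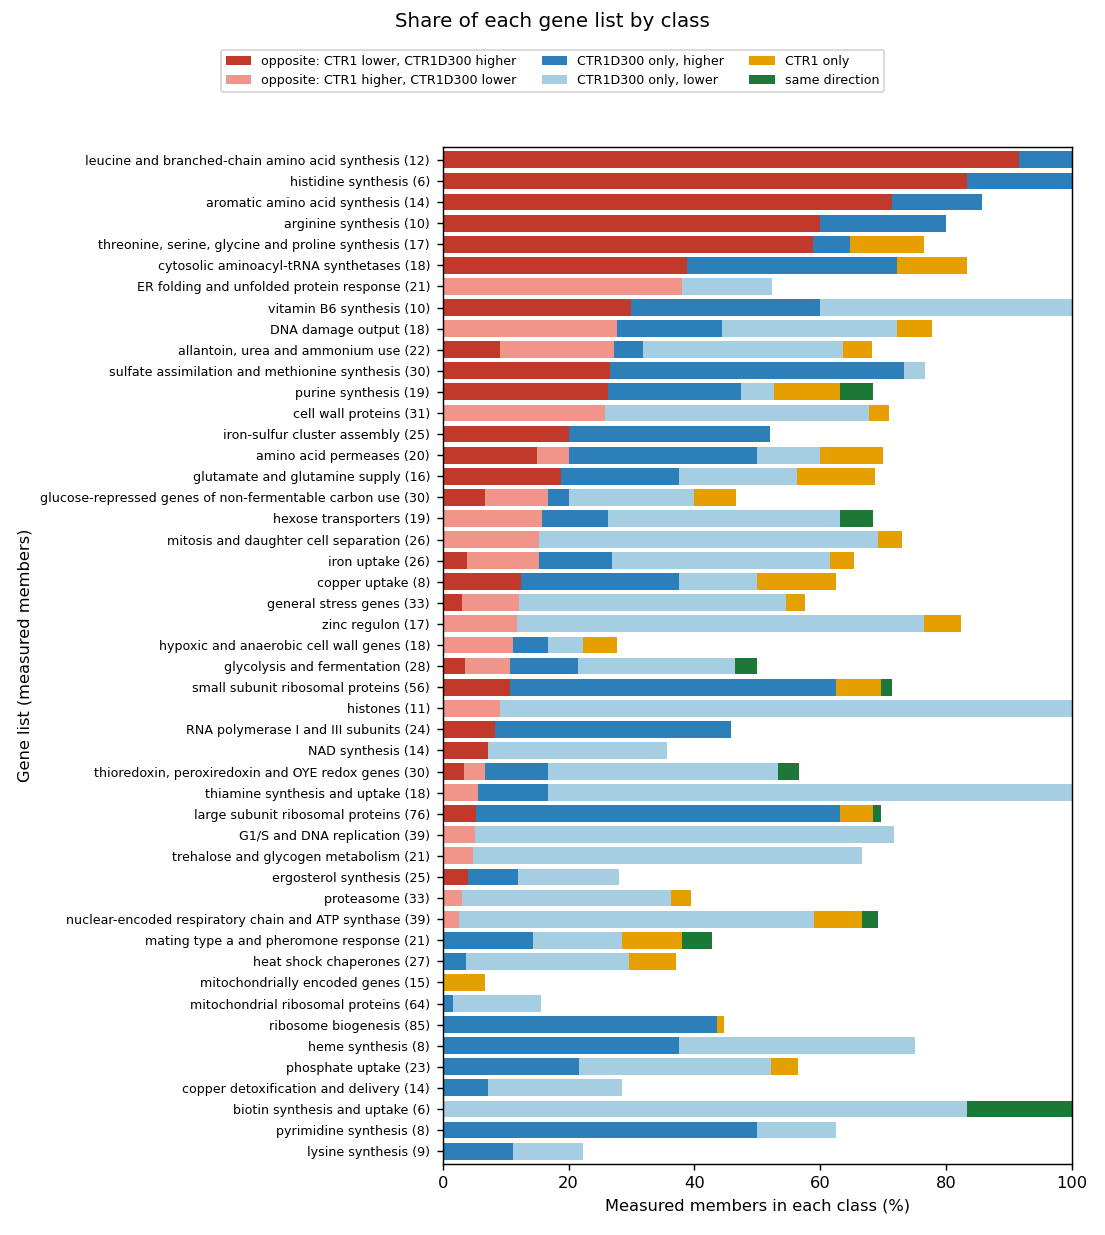
For each gene list with its number of measured members, the horizontal bars give the percentage of members in each class, with the rest not called, dim or called for neither effect. Branched-chain, histidine, aromatic and arginine synthesis have the longest shares of members lower with CTR1 and higher with CTR1D300, and thiamine, biotin and histone genes consist mostly of members lower with CTR1D300.

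Called genes of amino acid transport and nitrogen use went both ways, as did those of all genes tested. Of 20 amino acid permeases 10 were higher in the difference and 4 lower, against 19.7% and 26.7% of all genes. BAP2, a branched-chain amino acid permease, was opposite in the direction of DIP5 (2.08 ± 0.16), and PUT4, the proline permease, was opposite the other way (-2.67 ± 0.33; adjusted p = 9.33e-05). GNP1, the high-affinity glutamine permease, fell with CTR1 from 0.74, 0.80 and 0.80 to -0.15, 0.04 and -0.07, while in the deletion strain it read 0.58, 0.75 and 0.77 with the vector and 0.74, 1.00 and 0.99 with CTR1D300. Its difference was 1.05 ± 0.12 (adjusted p = 6.08e-05), and it was the largest of the lower genes called with CTR1 and not with CTR1D300. The CTR1D300 effect of 0.21 ± 0.09 missed the threshold (adjusted p = 0.0625) and passed with the arrays paired (adjusted p = 0.00398).

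Of 22 genes of allantoin, urea and ammonium use 13 were lower in the difference and 3 higher, against 26.7% and 19.7% of all genes. Of these 22 genes 4 rose with CTR1 and fell with CTR1D300 and 2 did the reverse, against 2.73% and 3.23% of all genes. DAL80, a GATA-type repressor of nitrogen catabolism, was at -2.23 ± 0.19 and DAL1, allantoinase, at -2.06 ± 0.23. Both were called with CTR1D300 and not with CTR1 (adjusted p = 0.0869 and 0.267 for CTR1), and both CTR1 effects were called with paired arrays (adjusted p = 0.012 and 0.0249). UGA3, the activator of GABA use genes, went the other way at 1.996 ± 0.09.

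Of all lists, those of biotin and thiamine had the largest median CTR1D300 effects, and their median CTR1 effects were near 0. All 18 thiamine genes were called in the difference, 16 lower and 2 higher, against 26.7% of all genes lower, and 15 of the 16 lower ones were called with CTR1D300 and not with CTR1. Their median effects were -0.10 with CTR1 and -2.21 with CTR1D300. THI4, the thiazole synthase of thiamine synthesis, had the largest difference of the genes named here. It read 2.98, 3.27 and 3.14 in WT_Con, 2.96, 2.49 and 3.12 in WT_CTR1, 4.64, 4.54 and 4.54 in Dctr1_Con and -1.76, -2.30 and -2.33 in Dctr1_CTR1D300.

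For THI4 the vector controls already differed between strains, with the deletion strain higher, and the Dctr1_CTR1D300 arrays lay below every array of the other groups. The difference was -6.43 ± 0.25 (adjusted p = 5.82e-08), the CTR1D300 effect -6.71 ± 0.18 and the CTR1 effect -0.27 ± 0.18 (95% interval -0.66 to 0.12). THI73, a putative transporter gene, was at -3.41 ± 0.45, and its CTR1 effect of -0.37 ± 0.32 was called with paired arrays (adjusted p = 0.0497). THI11, a hydroxymethylpyrimidine synthesis gene, was at -3.38 ± 0.18, but it has near-identical copies and its probe may read several of them.

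All 6 biotin genes were lower in the difference, with medians of -0.04 with CTR1 and -3.11 with CTR1D300. BIO5, a transporter of a biotin precursor, read 1.00, 1.20 and 1.07 in WT_Con, 1.41, 1.01 and 1.32 in WT_CTR1, 1.37, 1.51 and 1.39 in Dctr1_Con and -2.99, -2.19 and -2.34 in Dctr1_CTR1D300. All arrays of the other groups lay between 1.00 and 1.51, and the difference was -4.08 ± 0.25 (adjusted p = 7.26e-07). BIO2, biotin synthase, an iron-sulfur enzyme, was at -2.98 ± 0.21 and BIO4, dethiobiotin synthetase, at -3.01 ± 0.19. BIO3, the enzyme of the step before BIO4, fell with both constructs, by 3.27 with CTR1D300 and by 0.36 with CTR1 on the log2 scale, and the difference was -2.90 ± 0.09.

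The vitamin B6 list divided within a gene family. SNZ1 and SNO1 were opposite, as was TPN1, the pyridoxine permease (1.08), whereas SNZ2, SNO2, SNZ3 and SNO3 were lower with CTR1D300 and not called with CTR1. SNZ2 read 0.53, 0.49 and 0.45 in WT_Con, 0.60, 0.40 and 0.50 in WT_CTR1, 1.34, 1.43 and 1.36 in Dctr1_Con and -0.87, -0.79 and -0.95 in Dctr1_CTR1D300, a difference of -2.26 ± 0.10 (adjusted p = 1.03e-07). The CTR1 effect of SNZ2 was 0.01 ± 0.07 with a 95% interval of -0.14 to 0.16. SNZ2 and SNZ3, like SNO2 and SNO3, are near-identical copies and are uncertain as single genes. In yeast SNZ2 and SNZ3 lie beside thiamine genes and are regulated with them. Of 14 NAD synthesis genes 4 were lower and 1 higher, against 26.7% and 19.7% of all genes, with BNA2, the first enzyme of the kynurenine route from tryptophan, at -2.90 ± 0.18.

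Copper genes as a group did not move as one. Of 8 copper uptake genes 3 were higher in the difference and 3 lower, against 19.7% and 26.7% of all genes. The lower genes include CTR1, whose probe was not well above background on any deletion-strain array. IRC7, a cysteine desulfhydrase gene regulated by the copper sensor Mac1, was opposite (-0.77 ± 0.09 with CTR1, 1.26 ± 0.09 with CTR1D300, difference 2.03 ± 0.13). REE1, another gene of that list, rose with CTR1D300 (difference 0.90 ± 0.14). CTR2, the vacuolar copper transporter, was called with CTR1 and not with CTR1D300, at 0.38 ± 0.10 and -0.16 ± 0.10. CTR3, the other plasma membrane copper transporter, had a difference of -0.41.

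Of 14 genes of copper detoxification and delivery 5 were lower and 1 higher, against 26.7% and 19.7% of all genes. The metallothionein genes CUP1-1, CUP1-2 and CRS5 were not called in the difference. CCC2, the copper pump of the secretory pathway that loads Fet3, was lower by -1.37 ± 0.11 (adjusted p = 5.81e-06) and CCS1, the copper chaperone of superoxide dismutase, higher by 0.66 ± 0.10. The CTR1 effect of CCC2 (0.21 ± 0.08) was not called (adjusted p = 0.116) and was called with paired arrays (adjusted p = 0.00987).

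Iron uptake genes were lower in the difference in 15 of 26 cases and higher in 5, against 26.7% and 19.7% of all genes. ARN1, a siderophore transporter, was opposite: it read -1.20, -1.13 and -1.10 in WT_Con, -0.45, -0.81 and -0.16 in WT_CTR1, -0.82, -0.70 and -0.76 in Dctr1_Con and -2.27, -2.26 and -2.19 in Dctr1_CTR1D300 (difference -2.15 ± 0.18). FIT2, a cell wall mannoprotein that retains siderophores, was at -2.66 ± 0.37. Iron-sulfur cluster assembly went the other way, with 14 of 25 genes higher and none lower. CFD1, a scaffold ATPase of cytosolic cluster assembly, had a difference of 1.97 ± 0.19 and DRE2, an electron donor of the same machinery, 1.90 ± 0.11, both opposite. ISU2, a mitochondrial scaffold, rose with CTR1D300 (1.74 ± 0.08), and its CTR1 effect of -0.22 ± 0.08 was called with paired arrays only (adjusted p = 0.105 unpaired and 0.0329 paired).

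Zinc regulon genes were lower in the difference in 14 of 17 cases and never higher, with medians of 0.21 with CTR1 and -0.68 with CTR1D300. Members lower with CTR1D300 included ADH4, a zinc-sparing alcohol dehydrogenase (difference -2.04 ± 0.38), and VEL1 (-2.79 ± 0.79). Of 23 phosphate genes 6 were higher and 8 lower, against 19.7% and 26.7% of all genes. PHO89, a sodium-phosphate cotransporter, read -5.17, -4.34 and -4.30 in WT_Con, -5.57, -4.41 and -5.35 in WT_CTR1, -6.00, -5.55 and -5.57 in Dctr1_Con and -2.37, -2.35 and -2.88 in Dctr1_CTR1D300 (difference 3.68 ± 0.44; adjusted p = 7.61e-05). The wild-type groups overlapped for PHO89 while the deletion-strain groups did not.

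**Figure D4:**
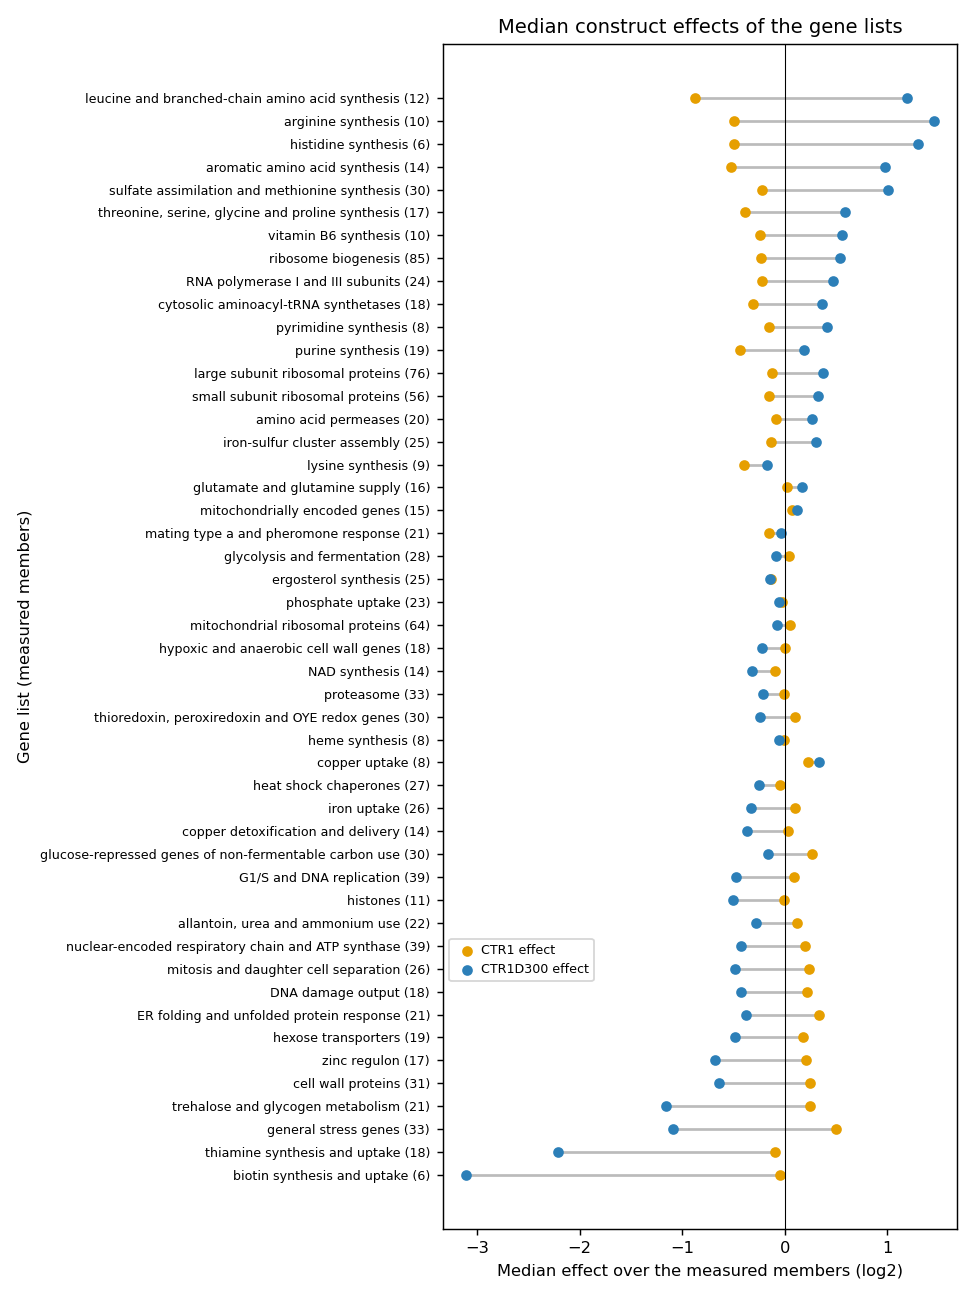
Median CTR1 effect and median CTR1D300 effect of the measured members of each gene list (log2), with 1 row per list. Amino acid synthesis lists other than lysine (-0.17 with CTR1D300) have CTR1 medians below 0 and CTR1D300 medians above 0. So do the cytosolic ribosomal protein and ribosome biogenesis lists, while the general stress, cell wall protein and zinc lists show the reverse. Biotin and thiamine medians lie near 0 with CTR1 and at -3.11 and -2.21 with CTR1D300.

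Called members of the cytosolic ribosomal protein, ribosome biogenesis and RNA polymerase I and III lists were all higher in the difference. This came mainly through the CTR1D300 effect. Of 76 large subunit proteins 60 were higher and none lower, and of 56 small subunit proteins 43 and none. Over all genes 19.7% were higher and 26.7% lower. The median differences of the large and small subunit lists were 0.51 and 0.48, at 0.72 and 0.70 on slide 1. On slides 2 and 3 they were 0.39 for both lists. Of the ribosomal protein genes 4 of 76 and 6 of 56 fell with CTR1 and rose with CTR1D300, against 3.23% of all genes. They included RPS9A (-0.31 ± 0.07 with CTR1, 1.22 ± 0.07 with CTR1D300). Paralogs such as RPL7A and RPL7B may share probe signal. Ribosome biogenesis had 48 of 85 genes higher and none lower or opposite, with a median difference of 0.75, and RNA polymerase I and III subunits 15 of 24.

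The median CTR1 effect of the ribosome biogenesis list was -0.24, 0.00 and -0.47 in replicate pairs 1, 2 and 3, and that of the CTR1D300 effect 0.66, 0.42 and 0.49. Pair 2 of the wild type thus showed no shift in this list, whereas all 3 pairs of the deletion strain did. Cytosolic aminoacyl-tRNA synthetases charge tRNAs with amino acids. Of their 18 genes 15 were higher in the difference and 7 were opposite, with medians of -0.31 and 0.37, and the CTR1 medians of the 3 pairs lay between -0.33 and -0.28. KRS1, the lysyl-tRNA synthetase, fell by 0.54 with CTR1 and was 0.53 higher with CTR1D300 (difference 1.08 ± 0.13; adjusted p = 7.32e-05).

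Genes that rose with CTR1 and fell with CTR1D300 were most numerous in the lists of protein folding in the endoplasmic reticulum, cell wall and DNA damage. Other lists held them too. They were 4 of 22 allantoin, urea and ammonium genes and 4 of 26 genes of mitosis and daughter cell separation. Of the hexose transporters they were 3 of 19, and of the iron uptake genes 3 of 26. Of 21 genes of endoplasmic reticulum folding 11 were lower in the difference and 1 higher, against 26.7% and 19.7% of all genes. Of these 21 genes 8 (against 2.73% of all genes) rose with CTR1 and fell with CTR1D300. KAR2, the Hsp70 of the endoplasmic reticulum, read 3.04, 3.01 and 3.12 in WT_Con, 3.42, 3.40 and 3.38 in WT_CTR1, 2.89, 2.84 and 2.93 in Dctr1_Con and 1.98, 1.91 and 2.11 in Dctr1_CTR1D300. Each over-expressing group of KAR2 stood apart from its control, and the difference was -1.23 ± 0.09 (adjusted p = 2.48e-06). MPD1, a protein disulfide isomerase, had a difference of -1.30 ± 0.11 and INO1, the inositol-phosphate synthase that is induced in the same response, -1.62 ± 0.26. HAC1, which encodes the transcription factor of that response, had a difference of 0.83 that was not called, and its activation by splicing is not read by the array.

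Of 31 cell wall genes 23 were lower in the difference and 1 higher, against 26.7% and 19.7% of all genes, with 8 opposite. PIR3, a covalently bound wall glycoprotein, was at 1.31 ± 0.21 with CTR1 and -1.46 ± 0.21 with CTR1D300 (difference -2.77 ± 0.30), and SED1, the major wall protein of stationary cells, had a difference of -1.59 ± 0.13. DNA damage genes were lower in 11 of 18 cases and higher in 3, against the same shares of all genes, with 5 opposite. RNR3, the damage-inducible subunit of ribonucleotide reductase, rose from -2.66, -2.47 and -2.56 to -1.80, -1.34 and -1.54 with CTR1 and fell from -2.62, -2.68 and -2.56 to -2.90, -3.23 and -3.24 with CTR1D300. HUG1, an inhibitor of that enzyme, had a difference of -2.25 ± 0.31, at -1.40 on slide 1 and -2.67 on slides 2 and 3. For HUG1 the larger part was the rise with CTR1 (1.53 ± 0.22 against -0.71 ± 0.22).

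The general stress list and the trehalose and glycogen list were lower with CTR1D300, and their CTR1 medians were positive with few called CTR1 effects. The general stress CTR1 median was 0.55, 0.28 and 0.66 in replicate pairs 1, 2 and 3. Over all arrays it was above the 0.34 of the endoplasmic reticulum folding list. Of 33 general stress genes 20 were lower in the difference and 1 higher, with medians of 0.50 with CTR1 and -1.09 with CTR1D300, and 14 were called with CTR1D300 and not with CTR1. Of 21 trehalose and glycogen genes 14 were lower and none higher (median difference -1.48). GLC3, the glycogen branching enzyme, was at -2.58 ± 0.47 and HSP26, a small heat shock protein, at -2.39 ± 0.38. Their CTR1 effects of 0.39 and 0.58 were not called (adjusted p = 0.487 and 0.195) and were called with paired arrays (adjusted p = 0.0419 and 0.00501). Of 27 heat shock chaperones 7 were lower and 3 higher, against 26.7% and 19.7% of all genes.

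Of 39 nuclear-encoded respiratory chain and ATP synthase genes 28 were lower and 1 higher, against 26.7% and 19.7% of all genes. Their median difference was -0.62. Mitochondrially encoded genes were not called in 14 of 15 cases, whereas 46.4% of all genes were called. In sugar metabolism single enzymes moved far in either direction. ADH5, an alcohol dehydrogenase isozyme, read 0.10, 0.38 and 0.12 in WT_Con, -1.30, -0.72 and -1.32 in WT_CTR1, 0.42, 0.03 and 0.22 in Dctr1_Con and 2.48, 1.99 and 2.10 in Dctr1_CTR1D300 (difference 3.28 ± 0.25), while ADH2, the glucose-repressed isozyme that oxidises ethanol, was opposite the other way (-2.10 ± 0.14). PDC5, a pyruvate decarboxylase isozyme, was at -2.84 ± 0.19. HXT5 and HXT10, hexose transporters, were opposite at -2.42 ± 0.27 and -2.77 ± 0.20, and HXT4 was at -3.52 ± 0.40 with a CTR1 effect of 0.21 ± 0.29.

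Cell cycle lists were lower in the difference and never higher among called members. All 11 histone genes were lower, against 26.7% of all genes, 10 of them called with CTR1D300 and not with CTR1, with a median difference of -0.60. Of 39 genes of the G1/S transition and DNA replication 28 were lower, led by the G1 cyclins PCL1 (-1.92 ± 0.22) and CLN1 (-1.56 ± 0.18). Of 26 genes of mitosis and daughter cell separation 20 were lower and 4 opposite, among them ASH1, the daughter-specific repressor of mating type switching (-1.34 ± 0.16). In RNA of whole cultures, fewer cells in a cycle phase and less transcript per cell cannot be told apart.

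The genes called with CTR1 and not with CTR1D300 were fewer and their effects smaller. An effect of at least 2-fold was found in 4 of them, and the largest was 1.2 on the log2 scale, whereas 300 of the 2049 genes of the converse class reached 2-fold and the largest effect there was 6.7. With each spot of the probe taken alone, 30 of them (0.49% of the genes tested) were again in this class, against 1208 (19.7%) in the converse class. SSA3, a stress-inducible cytosolic Hsp70, rose with CTR1 from -1.73, -1.81 and -1.81 to -0.56, -0.97 and -0.54. In the deletion strain it read -1.71, -1.78 and -1.91 with the vector and -1.48, -2.01 and -1.89 with CTR1D300, where the groups overlapped. Its CTR1D300 effect was 0.01 ± 0.14 (95% interval -0.31 to 0.32) and its difference -1.09 ± 0.20 (adjusted p = 0.00151).

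SST2, the regulator that desensitises the pheromone response, fell with CTR1 from -1.87, -1.83 and -1.97 to -2.56, -2.68 and -2.83 and read -2.15, -1.91 and -2.03 against -2.20, -1.71 and -1.75 in the deletion strain. Its difference was 0.94 ± 0.18 (adjusted p = 0.00178), at 0.64 on slide 1 and 1.09 on slides 2 and 3. ADE57 (ADE5,7 on the array), a bifunctional enzyme of purine synthesis, was at -0.78 ± 0.14 with CTR1 and 0.04 ± 0.14 with CTR1D300. NCW2, a cell wall protein gene, rose by 0.85 ± 0.11 with CTR1, and its CTR1D300 effect was -0.24 ± 0.11 (adjusted p = 0.0909). Of the other genes the naming rule took from this class, NDE2, DIA1 and GDS1 had CTR1D300 effects that were called with paired arrays (adjusted p = 0.00752, 0.000262 and 0.00366), while PHO92 and NOP53 did not change class under that fit. With the lower-numbered spot alone, however, PHO92, NOP53, NDE2 and GDS1 were called with CTR1D300 and not with CTR1.

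The 2049 genes of the converse class had a median size of 0.56 for the CTR1D300 effect and 0.13 for the CTR1 effect. Of the 5 largest higher genes, MET1, which acts in siroheme synthesis for sulfite reduction, was at -0.11 ± 0.14 with CTR1 and 2.16 ± 0.14 with CTR1D300. BOP2, of unknown function, was at 0.19 ± 0.13 and 2.73 ± 0.13, and it became a gene of one direction with paired arrays (adjusted p = 0.0073 for CTR1). SPL2, an inhibitor of low-affinity phosphate uptake, was at -1.22 ± 0.39 with CTR1 (adjusted p = 0.0635, and 0.0358 paired). The large lower genes ISF1, GAC1 and EGO4 had CTR1 effects of 1.04 to 1.56 with SE of 0.48 to 0.71 that were not called, and called higher with paired arrays (adjusted p = 0.0348, 0.00461 and 0.00196). For ISF1 the Dctr1_Con arrays themselves spread from -5.03 to -1.23.

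**Figure D5:**
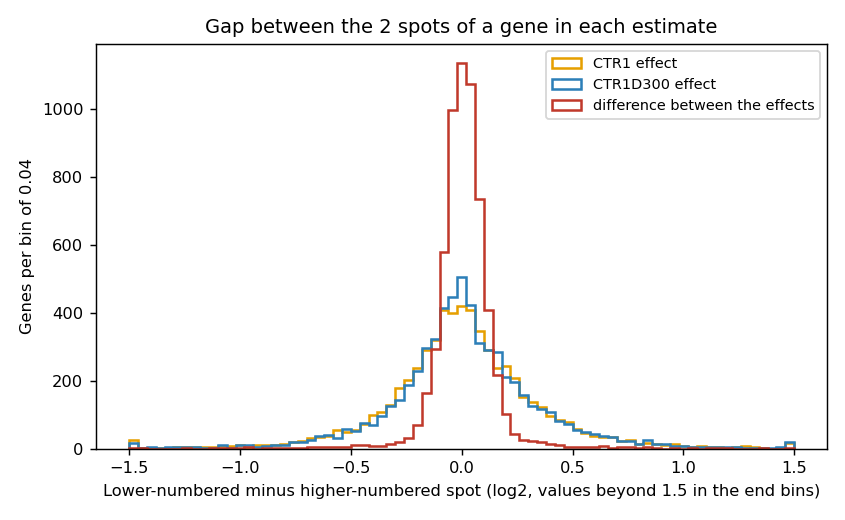
Histograms of the gap between the 2 spots of a probe, lower-numbered minus higher-numbered (log2, extreme values in the end bins), against the number of genes, for the CTR1 effect, the CTR1D300 effect and their difference. The gaps of the difference are the narrowest, with a median size of 0.057 against 0.175 and 0.161.

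Movement in one direction by different amounts was the smallest class. OYE3, a NADPH oxidoreductase of the old yellow enzyme family, read -2.90, -3.19 and -3.01 in WT_Con, -2.55, -2.62 and -2.51 in WT_CTR1, -2.75, -2.98 and -2.99 in Dctr1_Con and 0.59, 0.03 and 0.27 in Dctr1_CTR1D300. It rose with CTR1 (0.48 ± 0.13) and about 9-fold with CTR1D300 (3.20 ± 0.13), and the difference was 2.73 ± 0.19 (adjusted p = 1.33e-06). YKL070W rose with both (0.95 ± 0.11 and 2.54 ± 0.11), and YLR031W rose more with CTR1 (1.36 ± 0.15 against 0.45 ± 0.15). AAD10, a putative aryl-alcohol dehydrogenase gene with close paralogs, fell with both, by 0.26 and 2.42. An equal slide column effect would add to both construct effects of such genes in one direction and leave their difference as it is.

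Many genes moved alike with both constructs or could not be told apart. CTR1 gave 813 calls (13.3%), 444 higher (7.25%) and 369 lower (6.02%), and CTR1D300 gave 3341 (54.5%), 1468 higher (24%) and 1873 lower (30.6%). Of the 813 genes the difference was also called for 570 and not for 243, and of the 3341 genes for 2473 and not for 868. Of 210 genes called with both in one direction the difference was not called for 174. Which of these shared calls belong to the slide column cannot be told apart from the constructs, since every over-expressing array lay in the same column.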

How the data were processed

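RNA of 12 cultures was hybridised to 12 single-colour Cy3 Agilent arrays. The authors scanned array design 016322 with Agilent Feature Extraction 10.7.1.1, and its annotation is from sacCer1, per the file headers. The deposited processed signal is a background-subtracted intensity per spot, not scaled between arrays; the deposited median signal, background and 0 or 1 flags per spot (other) served the alternatives and filters. The authors' series matrix, used as an alternative, holds log2 values for 5191 gene probes. No coordinates are given, because the names came from a RefSeq table of R64 and not of sacCer1.

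The log2 processed signal was averaged over the 2 spots of a probe, set against the 75th percentile of all gene probes on that array, and a gene was read by its brightest probe. Of the probes, 101 were dropped as well above background on fewer than 3 arrays, and the 6155 others gave 6127 genes. The 4 group means were fitted to 12 arrays with limma 3.58.1 (lmFit and eBayes, R 4.3.3; 8 residual degrees of freedom, no block), and a Benjamini-Hochberg adjusted p under 0.05 made a call. Errors are SE of the fit. A class needed a call for the difference and detection on at least 2 of 3 arrays in every group. The steps were tested on simulated data. The number of arrays limits the precision.

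Named genes were the largest differences of each class with ranges apart (6 in each opposite direction, 5 in each direction of the single-construct classes, 3 in each of the shared directions), CTR1, YPR123C, the strain markers, and up to 3 called members of each of 49 lists. Others are named to account for a list. The members, lists and rules were chosen with earlier results of these data known.

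Deviations from the group means correlated between same-numbered arrays of a strain (r across genes of 0.750, 0.692 and 0.342 in wild type and 0.679, 0.699 and 0.394 in the deletion strain). Values with these paired arrays as a block are therefore given where a call changed. Same-numbered arrays of a strain also lay in the same row of the same slide, so pairing of cultures and slide position cannot be told apart. Replicate 1 of every group lay on slide 1, which was scanned on a day before the others, and the other arrays lay on slide 2 (wild type) and slide 3 (deletion strain).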

Additional observations from a re-analysis of the deposited data

Results flagged for a closer look

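The effects of the 2 constructs differed, by the test of the difference itself, for 2845 of 6127 genes, and for 365 of them both effects were called with opposite signs. These counts were set apart because the same kind of contrast, over-expressing minus empty vector, gave different results in the 2 strains. Strain and construct differed together between these contrasts.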

How the results depend on the processing

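The count of 2845 genes with a called difference stayed within 1.5 times under every alternative, from 2012 without slide 1 to 4024 with a replicate block within strain (3673 with a replicate block across strains), and from 2269 to 3196 with 1 array left out. Genes higher in the difference numbered 794 without slide 1 and 969 to 1365 with 1 array left out, and lower ones 1300 to 1831. The split of 1209 higher and 1636 lower genes was 1398 and 1381 with quantile scaling, 1411 and 1357 with median centring and 1239 and 1272 in the authors' matrix values, so the excess of lower genes depends on the scaling. Opposite genes numbered 837 with a replicate block, 1232 with a replicate block within strain, 587 with slide as a block, 162 without slide 1 and 206 to 583 with 1 array left out. Genes called with CTR1 and not with CTR1D300 numbered 108 with normexp background correction, 290 and 323 with the same blocks, 255 with slide as a block, 58 without slide 1, and 74 to 241 with 1 array left out. This class fell by over 1.5 times without WT_Con replicate 1 (102), 2 (89) or 3 (100) and without WT_CTR1 replicate 1 (87) or 3 (74). The converse class held 1607 to 2057 genes with 1 array left out. Leaving out arrays or slide 1 leaves fewer samples. Without WT_CTR1 replicate 2 the counts rose, to 583 opposite genes and 241 genes called with CTR1 and not with CTR1D300. The cause of the changes was not tested. Of 168 named genes 153 were called in all 26 alternatives, and the others were mainly SCO1, HEM3, RPA135, NOP7, HSP104, PRM1 and HSP82. The difference of YPR123C, dim in Dctr1_Con, was -0.035 with normexp against 2.81.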

Other observations

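Several lists held called members in both directions, as did all genes tested, of which 19.7% were higher in the difference and 26.7% lower. Of 19 purine synthesis genes 11 were higher in the difference and 2 lower, with ADE8, which acts early in the pathway, at 1.94 ± 0.17 and opposite. Of 8 pyrimidine genes 4 were higher and 1 lower, all with CTR1D300 and without a called CTR1 effect. The higher ones included URA2, the first enzyme of the pathway (0.97 ± 0.15). Of 16 genes of glutamate and glutamine supply 7 were higher and 4 lower. IDP1, the mitochondrial isocitrate dehydrogenase that uses NADP, was opposite at 1.52 ± 0.09. CIT1, mitochondrial citrate synthase, was lower, called with CTR1D300 only at -1.42 ± 0.28. Of 30 glucose-repressed genes of non-fermentable carbon use 13 were lower and 3 higher. ATO3, a putative ammonium and acetate transporter, read 3.17 ± 0.17 and YAT2, a carnitine acetyltransferase, 2.48 ± 0.13, both lower with CTR1 and higher with CTR1D300, while POT1, the thiolase of peroxisomal fatty acid oxidation, was opposite the other way (-2.45 ± 0.30).

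Proteasome genes were lower in 13 of 33 cases and never called higher, against 26.7% and 19.7% of all genes, with RPN6 at -0.78 ± 0.10. Of 64 mitochondrial ribosomal protein genes 54 were not called, 9 were lower and 1 higher, against 26.7% lower and 19.7% higher of all genes. Of 25 ergosterol genes 17 were not called, 3 were higher and 5 lower, against 19.7% and 26.7% of all genes. ERG8 was at 0.97 ± 0.11 and ERG20 at -0.88 ± 0.08. Of 8 heme genes 3 were higher and 3 lower, against 19.7% and 26.7% of all genes. Of 21 genes of mating type a and pheromone response 6 were higher and 3 lower, against the same 19.7% and 26.7%. PRM5 was at 1.18 ± 0.13 and FIG1, a cell fusion protein gene, at -1.17 ± 0.28. Of 18 hypoxic and anaerobic cell wall genes 5 were lower and 2 higher, against 26.7% and 19.7% of all genes, with ANB1, the hypoxic isoform of translation factor eIF5A, opposite at -1.62 ± 0.18. ATR1, a multidrug efflux pump of the plasma membrane, was opposite at 3.16 ± 0.26, with a CTR1 effect of -0.90 and a CTR1D300 effect of 2.26.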
